A study of Mus musculus with 8 samples.

Results

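Levels and poly(A) site usage of 9 genes of the p53 and growth arrest response were examined in mouse cells under arsenite stress and during recovery from it. The genes were taken by name, by a rule that uses no measured value: Trp53, Cdkn1a, Mdm2, Ccng1, Gadd45a, Gadd45b, Btg2, Bax and Trp53inp1. The list itself was put together with earlier results of these data known. All 9 were among the 9875 genes found in each of 3 gene tables, out of 10690 genes found in at least 1. NIH3T3, an established line of mouse embryo fibroblasts grown in DMEM with calf serum, was used in 4 conditions. NT cells were nontreated, AS cells were kept in 250 μM sodium arsenite for 1 h, and RC4 and RC8 cells received the same treatment and then recovered in arsenite-free medium, for 4 h and 8 h respectively. Arsenite is an oxidative and proteotoxic stress agent that binds thiol groups. Total RNA of each condition was sequenced as 1 QuantSeq FWD library, which yields a read near the poly(A) site (PAS) of a transcript, and companion QuantSeq REV libraries were not analysed here. All cells belong to 1 line, so the values describe that line, and since each condition has 1 library, no replicate check and no test between conditions was possible.

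The p53 protein, the product of Trp53, is a transcription factor that is held at low levels in unstressed cells because the ubiquitin ligase MDM2 marks it for degradation. DNA damage and other stresses stabilise the protein, which then activates genes that stop the cell cycle, repair DNA or start apoptosis, and Mdm2 is itself among the genes it activates, closing a negative feedback loop. Several of these genes also answer to stress kinase and serum pathways that do not need p53, Gadd45b and Btg2 being well-known cases. The mRNA of Trp53 need not follow the amount of its protein, and protein was not measured.

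The p53 protein binds pairs of a 10-base motif, the p53 decamer, which reads alike on both strands. RefSeq promoter windows (GRCm38.p6, 250 bases before to 50 bases after a gene start) were found for 8 of the 9 genes, and 6 of these 8 held at least 1 match to the decamer consensus, or 75%, compared with 9.55% of 27025 genes. The matches are shown in capitals with 10 bases on either side, on the strand of the gene, since some of the genes have them and others do not. The lines below are, in order, chr11:69580274-69580303 (plus strand), chr17:29090896-29090925 (plus), chr10:117710925-117710954 (minus), chr11:40755452-40755481 (minus), chr6:67037428-67037457 (minus) and chr7:45467080-45467109 (minus).
Trp53: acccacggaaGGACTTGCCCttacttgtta
Cdkn1a: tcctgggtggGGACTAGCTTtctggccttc
Mdm2: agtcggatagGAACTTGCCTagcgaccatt
Ccng1: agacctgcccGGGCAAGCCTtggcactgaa
Gadd45a: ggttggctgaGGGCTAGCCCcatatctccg
Bax: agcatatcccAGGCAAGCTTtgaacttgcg

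The decamers began between −201 bases from the gene start in Bax and −40 bases in Gadd45a. Cdkn1a held a second decamer, at −51 bases, besides the printed one at −73 bases. That gave a complete pair within 13 bases of each other, an arrangement found in 24 of 32851 windows. A second start of Cdkn1a had none, and neither Gadd45b nor Btg2 held a match. Among other named p53 targets, 8 of 26 genes with a window had a match, whereas 1 of 15 p53 regulators did. A match is a description of letters, and binding was not measured. The genes were chosen for their known part in the p53 and growth arrest response. For p53 targets that status rests in part on binding sites, so the share is not independent of the choice. Whether the printed matches are among those sites was not examined.

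Libraries held 22.4 M to 23.0 M reads on genes, and every gene of a table had at least 50 reads. Hmox1, an oxidative stress gene used to check the labels, was 2.09-fold, 32.1-fold and 3.66-fold above NT in AS, RC4 and RC8. All 10 fibroblast markers were present in each table, 0 of 3 epithelial and 0 of 3 endothelial markers were listed, and of 3 blood cell markers Csf1r was listed in the AS table only. Of the 10 fibroblast markers, 0 (AS), 2 (RC4) and 3 (RC8, Col1a2, Col3a1 and Pdgfrb) were at least 2-fold lower than NT. The shares over all genes were 3.22%, 13.4% and 3.53%. Their median log2 change was −0.82 in RC8. The part of this change of the markers in the results on the 9 genes was not tested. Levels are given as RPM, the reads of a gene scaled to a total of 1000000 reads on genes, with 95% exact Poisson intervals in the plot of levels, and changes as log2 of the RPM ratio to NT with 95% exact binomial intervals. Intervals cover counting error only. The median gene changed by −0.04 (AS), −0.30 (RC4) and 0.01 (RC8) on the log2 scale, so RC4 changes of the 9 genes are also given relative to the median gene. RPM is a share of the reads of a bulk sample, in which fewer cells expressing a gene and less RNA per cell cannot be told apart.

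**Figure D1:**
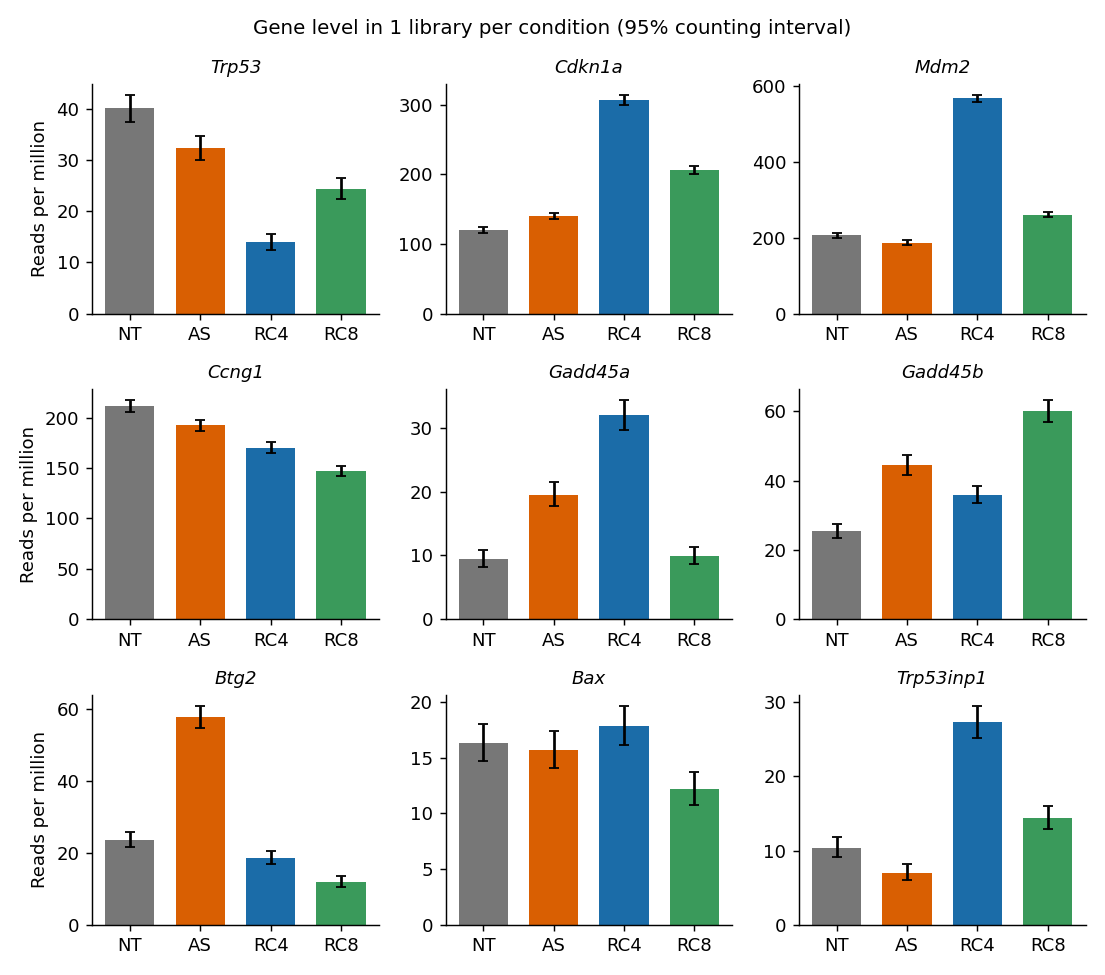
Gene level in RPM (y axis, from 0, a scale per gene) of the 9 genes in the NT, AS, RC4 and RC8 libraries (x axis), with bars for the library value and lines for the 95% Poisson interval. Cdkn1a, Mdm2, Gadd45a and Trp53inp1 were highest in RC4, where Trp53 was lowest, whereas Btg2 was highest in AS and Gadd45b in RC8.

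The 9 genes did not follow a single pattern. Calls of at least 2-fold were made for Gadd45a and Btg2 in AS, for Cdkn1a, Mdm2, Gadd45a and Trp53inp1 in RC4 and for Gadd45b in RC8, all higher than NT, and for Trp53 in RC4, lower than NT. In AS this was 2 of 9 genes higher, compared with 0.622% of 10452 genes, and 0 of 9 lower, compared with 3.22%. In RC4 it was 4 of 9 genes higher, compared with 3.69% of 10081 genes, and 1 of 9 lower, compared with 13.4%. Relative to the median gene, the RC4 calls of the 9 genes were again 4 higher and 1 lower, beside 6.38% of all genes in either direction. In RC8 it was 1 of 9 higher, compared with 2.97% of 10441 genes, and 0 of 9 lower, compared with 3.53%. The counts of higher genes thus lay above the share over all genes in each comparison, by 1 gene in RC8, and the count of lower genes in RC4 lay near it on either reference. This describes a short list that was put together with results of these data known. The 9 genes had a median log2 change of −0.05 for AS, 0.50 for RC4 and 0.08 for RC8, the RC4 value lying 0.80 above the median gene.

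**Figure D2:**
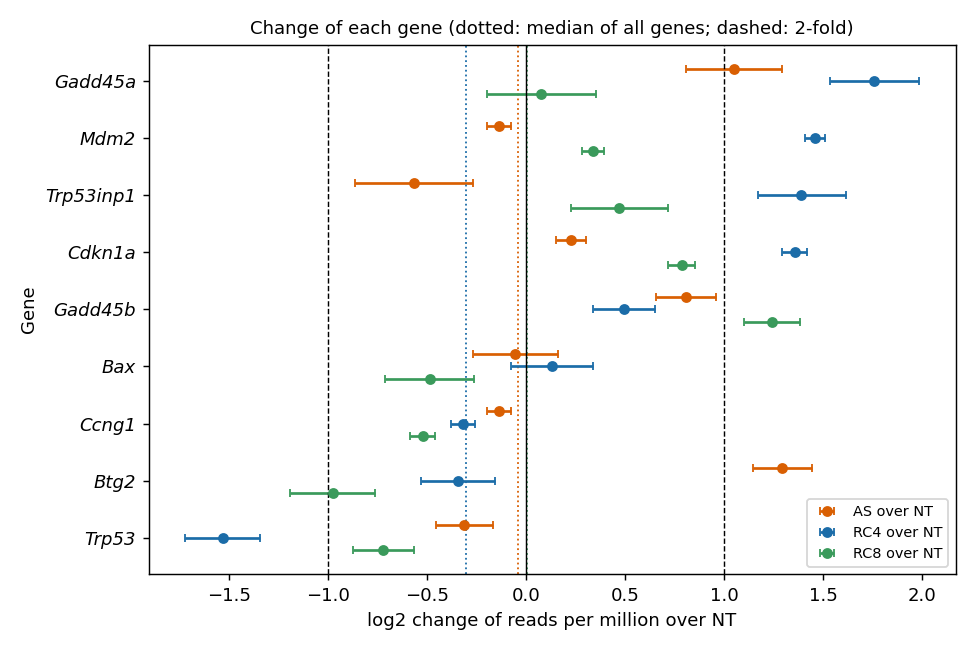
log2 change of RPM over NT (x axis) of each gene (y axis, ordered by the RC4 change) in AS, RC4 and RC8, with 95% binomial intervals, dotted lines at the median of all genes in the color of the comparison and dashed lines at a 2-fold change. Points of RC4 span from −1.53 for Trp53 to 1.76 for Gadd45a, with 4 genes beyond the upper dashed line.

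Trp53 (chr11:69393861-69405375, plus strand, mm9) encodes p53 itself. It measured 40.03 RPM in NT cells, 32.3 in AS, 13.9 in RC4 and 24.3 in RC8. NT was thus highest, RC4 was lowest and RC8 stood between AS and RC4, with no overlap of intervals between neighbours in that order. Its log2 changes over NT were −0.31 (−0.45 to −0.17) for AS, −1.53 (−1.72 to −1.34) for RC4 and −0.72 (−0.87 to −0.57) for RC8. Trp53 mRNA in RC4 was 2.89-fold below NT, and 3.66% of genes had a lower value. Relative to the median gene the RC4 change was −1.23, so Trp53 was lower than NT on both references. From RC4 to RC8 its level was 1.75-fold higher.

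Cdkn1a (chr17:29227924-29237667, plus strand) encodes p21, an inhibitor of cyclin-dependent kinases through which p53 stops the cell cycle. It measured 120 RPM in NT cells, 140 in AS, 307 in RC4 and 207 in RC8. All treated libraries lay above NT, RC4 the highest, and no intervals overlapped. In log2 units the change over NT was 0.23 (0.15 to 0.30) for AS, 1.36 (1.29 to 1.42) for RC4 and 0.79 (0.72 to 0.85) for RC8. Its RC4 change was 1.66 relative to the median gene. In RC4, 98.2% of genes had a lower change than Cdkn1a, and in RC8 94.0% did. Between RC4 and RC8 its level was 1.49-fold lower, which left it 1.72-fold above NT.

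Mdm2 and Ccng1 encode negative regulators of p53. Mdm2 (chr10:117125944-117147814, minus strand) measured 206 RPM in NT cells, 187 in AS, 567 in RC4 and 261 in RC8. RC4 was far above the other libraries, and AS was slightly below NT. Against NT, AS differed by −0.14 (−0.20 to −0.08), RC4 by 1.46 (1.41 to 1.51) and RC8 by 0.34 (0.28 to 0.40) on the log2 scale. The RC4 change was 1.76 relative to the median gene. The step from AS to RC4 was 3.03-fold up, and that from RC4 to RC8 was 2.17-fold down. Ccng1 (chr11:40562054-40568813, minus strand), which encodes cyclin G1, a partner of a phosphatase that acts on MDM2, measured 211 RPM in NT cells, 192 in AS, 170 in RC4 and 147 in RC8. Each library was lower than the one before it in the time course, and intervals did not overlap. Its log2 changes over NT were −0.14 for AS, −0.32 for RC4 and −0.52 for RC8. In RC4 Ccng1 was 0.01 below the median gene, close to the table as a whole. A decamer match was present in the promoter windows of both genes, and a relation between matches and changes was not tested.

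GADD45 proteins bind stress kinases and cell cycle and repair proteins. Gadd45a (chr6:66985090-66987451, minus strand), an established p53 target, measured 9.43 RPM in NT cells, 19.5 in AS, 31.9 in RC4 and 9.96 in RC8. AS and RC4 were above NT, whereas the intervals of RC8 and NT overlapped. Its log2 changes over NT were 1.05 (0.81 to 1.29) for AS, 1.76 (1.53 to 1.98) for RC4 and 0.08 (−0.20 to 0.35) for RC8. Gadd45a was the only one of the 9 with a 2-fold call in more than 1 comparison, and its level was 3.21-fold lower in RC8 than in RC4. The AS interval reaches below the 2-fold limit, and the RC4 change was 2.06 relative to the median gene.

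Gadd45b (chr10:80392836-80394949, plus strand), which is better known as a target of NF-κB and TGF-β than of p53, was ordered differently. It measured 25.4 RPM in NT cells, 44.4 in AS, 35.9 in RC4 and 60.0 in RC8. All treated libraries were above NT without overlap of intervals, RC8 the highest and RC4 the lowest of them. In log2 units the change over NT was 0.81 (0.66 to 0.96) for AS, 0.50 (0.34 to 0.65) for RC4 and 1.24 (1.1 to 1.4) for RC8. In AS, 99.0% of genes had a lower change, although 2-fold was not reached. Relative to the median gene the RC4 change was 0.80, so its size depends on the reference. Gadd45a and Gadd45b therefore shared a higher level in AS and RC4 and parted in RC8.

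Btg2 (chr1:135971747-135975697, minus strand) encodes an antiproliferative protein that binds the CCR4-NOT deadenylase and is also an immediate early gene. It measured 23.5 RPM in NT cells, 57.6 in AS, 18.6 in RC4 and 12.0 in RC8. AS was the highest and the recovery libraries lay below NT, with no overlap of intervals. Against NT, AS differed by 1.29 (1.15 to 1.44), RC4 by −0.34 (−0.53 to −0.15) and RC8 by −0.98 (−1.19 to −0.76) on the log2 scale. In AS, Btg2 ranked 33 from the highest of 10452 genes, while in RC8 3.84% of genes had a lower change. Relative to the median gene the RC4 change was −0.04. The level in RC8 was 4.82-fold below that in AS, the widest range among the 9 genes.

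Bax (chr7:52717065-52722268, minus strand) encodes a pore-forming protein of the mitochondrial death pathway, and none of its changes reached 2-fold. It measured 16.3 RPM in NT cells, 15.7 in AS, 17.9 in RC4 and 12.2 in RC8. Intervals of NT, AS and RC4 overlapped, and RC8 was lower. Its log2 changes over NT were −0.05 (−0.27 to 0.16) for AS, 0.13 (−0.08 to 0.34) for RC4 and −0.49 (−0.71 to −0.26) for RC8. The RC4 change was 0.43 relative to the median gene and 0.42 with TMM factors, so whether Bax lay above NT in RC4 depends on the scaling. The NT read number of Bax was 368 in the AS and RC4 tables and 385 in the RC8 table, and the RC8 change is taken against the latter. Trp53inp1 (chr4:11083578-11101526, plus strand), whose product takes part in p53-dependent cell death and autophagy, measured 10.4 RPM in NT cells, 7.04 in AS, 27.3 in RC4 and 14.4 in RC8. AS was below NT and RC4 was the highest, as for Mdm2. In log2 units the change over NT was −0.56 (−0.86 to −0.27) for AS, 1.39 (1.17 to 1.61) for RC4 and 0.47 (0.23 to 0.72) for RC8. The RC4 change was 1.69 relative to the median gene, and the RC8 change was 0.22 with the first and 0.74 with the second count column of the libraries alone.

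Mdm2, Cdkn1a and Btg2 served as reference points for likeness, which was the Euclidean distance between the 3 log2 changes among 7814 genes with at least 200 reads in every library. The comparisons share the NT library. Mdm2 was nearest to Tgoln1, at a distance of 0.01, followed by Phf10 and Gm23814. Cdkn1a was nearest to Pea15a, at 0.12, and then to Nars and 1700010K24Rik. Btg2 was nearest to Dusp1, at 0.13, whereas the next genes, Ccnl1 and 5430416N02Rik, were at 0.47 and 0.51. Dusp1, an immediate early phosphatase gene, had log2 changes of 1.18 in AS, −0.35 in RC4 and −1.04 in RC8. None of these nearest genes belongs to the 9, of which Trp53inp1 has fewer than 200 reads in AS and could not appear.

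Lists of related genes were used to place the 9 genes in their pathway. Of 33 other p53 targets, 28 to 30 were listed per table. None passed 2-fold in AS, where Sertad1 came closest with a log2 change of 0.99. In RC4, 2 of 28 were higher, the polo-like kinase genes Plk2 (2.57-fold) and Plk3 (2.96-fold), and 5 were lower, compared with 3.69% and 13.4% of all genes. The lower ones were Sesn1, a stress-responsive inhibitor of mTORC1 signaling, which was 8.86-fold lower, Ckap2 (3.89-fold), Fdxr (2.38-fold), Ei24 (2.13-fold) and Gtse1 (2.04-fold). Relative to the median gene, Fdxr (−0.95), Ei24 (−0.79) and Gtse1 (−0.72) were within 2-fold on the log2 scale. In RC8, Plk2 and Plk3 were still 2.41-fold and 2.37-fold higher, the peptide transporter gene Tap1 was 2.71-fold higher on 62 NT reads, and Sesn1 was 3.31-fold lower. This list had a median log2 change of −0.06 for AS, −0.36 for RC4 and −0.01 for RC8. These values were, relative to the median gene, −0.02, −0.06 and −0.01. The corresponding medians of the 9 genes were −0.01, 0.80 and 0.07, a difference that was not tested.

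**Figure D3:**
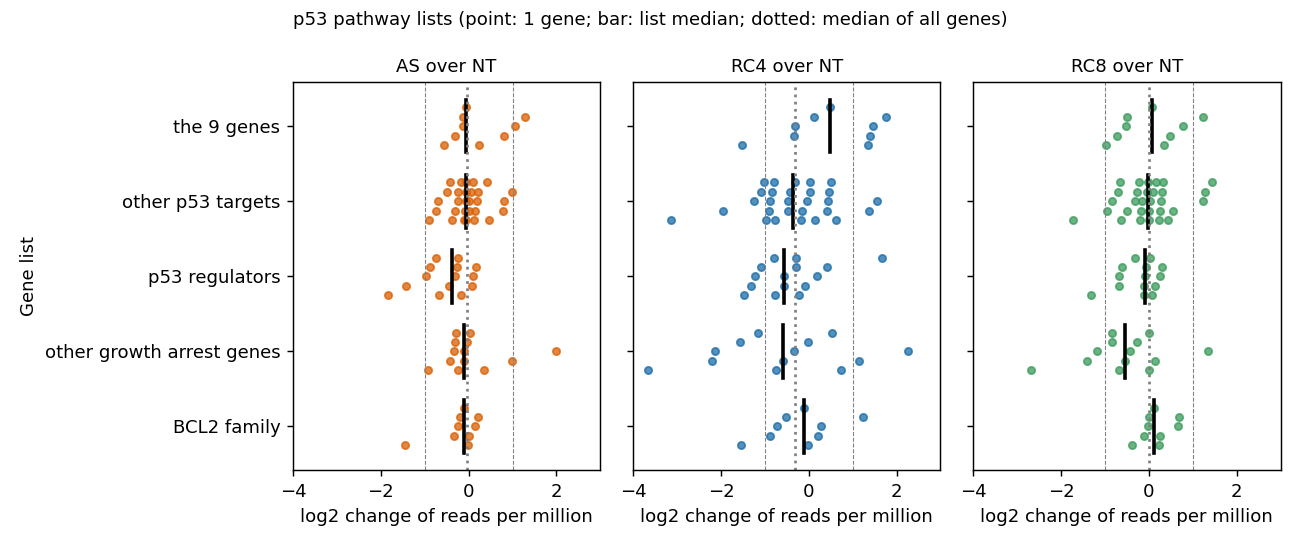
log2 change of RPM over NT (x axis) for the 9 genes and 4 lists of pathway genes (y axis) in AS, RC4 and RC8, with a point per gene, a bar at the list median, a dotted line at the median of all genes and dashed lines at 2-fold. In RC4 the median of the 9 genes, 0.50, lies to the right of the dotted line, and that of the other p53 targets, −0.36, close to it.

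Genes of p53 regulators, such as kinases and acetyltransferases that modify p53, were called lower more often than higher. In AS, 2 of 14 were at least 2-fold lower, compared with 3.22% of all genes, the kinase gene Hipk2 (3.55-fold) and the acetyltransferase gene Crebbp (2.69-fold). In RC4, 4 of 15 were lower, compared with 13.4% of all genes. Hipk2 was 2.35-fold lower, as were Trp53bp1 (2.78-fold), Atm (2.48-fold) and Chek1 (2.14-fold), the last ones genes of DNA damage signaling, although relative to the median gene Hipk2 (−0.93) and Chek1 (−0.79) were within 2-fold on the log2 scale. Ppp1r13l, which encodes the p53 inhibitor iASPP, was 3.19-fold higher in RC4 and rested on 50 NT reads. This was 1 of 15 higher, compared with 3.69% of all genes. In RC8 Hipk2 alone passed 2-fold, at 2.50-fold lower, or 1 of 14 compared with 3.53% of all genes. Mdm4, the partner of Mdm2, had log2 changes of −0.30 in AS, −0.29 in RC4 and 0.08 in RC8, so the RC4 value of Mdm2 had no counterpart there.

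Of 18 other growth arrest genes, 13 were listed in each table, Cdkn2a and Cdkn2b not among them. NIH3T3 cells are known to lack that locus. Gadd45g, the remaining member of the GADD45 family, was 3.96-fold higher in AS, 4.78-fold higher in RC4 and 2.56-fold higher in RC8, so all 3 family members were above NT in AS and RC4. Btg3, a relative of Btg2, was 2.21-fold higher in RC4, where Btg2 was not. At least 2-fold lower in RC4 were 5 of 13, compared with 13.4% of all genes, namely Gas1 (12.6-fold), a gene named for its expression in growth-arrested fibroblasts, the inhibitor genes Cdkn2c (4.63-fold) and Cdkn1b (2.23-fold), Rbl1 (4.41-fold) and Tob1 (2.97-fold). The inhibitor genes thus lay on opposite sides of NT, with Cdkn1a higher and both Cdkn2c and Cdkn1b lower, Cdkn1b by −0.86 relative to the median gene. Klf6, a growth-restraining transcription factor gene, had log2 changes of 0.998 in AS, just short of 2-fold, 0.74 in RC4 (1.67-fold) and −0.28 in RC8. On the log2 scale it was 1.04 above the median gene in AS and in RC4. In RC8, Gas1 (6.38-fold), Tob1 (2.65-fold) and Btg1 (2.25-fold) were lower. The list had a median log2 change of −0.10 for AS, −0.60 for RC4 and −0.55 for RC8, the last one 0.55 below the median gene.

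Of 10 genes of the BCL2 family other than Bax, 9 were listed. The antiapoptotic gene Bcl2 was 2.72-fold lower in AS and 2.91-fold lower in RC4, with a log2 change of 0.25 in RC8. Bcl2l11, which encodes the death-promoting protein BIM, was 2.37-fold higher in RC4, with log2 changes of −0.25 in AS and −0.38 in RC8. In RC4 this gave 1 of 9 higher and 1 of 9 lower, compared with 3.69% and 13.4% of all genes. In AS it was 1 of 9 lower, compared with 3.22%. No other member passed 2-fold in any comparison, and Bak1, the closest relative of Bax in function, had log2 changes of −0.32 (AS), −0.72 (RC4) and −0.12 (RC8). The direct p53 target Bbc3, which encodes the death-promoting protein PUMA, had a log2 change of −0.42 in RC4. Among the genes of cell death named here, Trp53inp1 and Bcl2l11 were higher and Bcl2 was lower in RC4. Bax, Bak1 and Bbc3 stayed within 2-fold of NT, as did Bad, with a log2 change of −0.52. These are calls of single genes, and a shared direction of the cell death genes was not tested.

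Usage of PASs was next compared, as the share of the reads of a gene that was assigned to each PAS, with 95% Wilson intervals from the reads of the gene. Mdm2, Gadd45a and Trp53inp1 had 1 PAS in every table. The remaining 6 genes had several, all in the 3′-most exon according to the tables. A change of at least 10 percentage points at a PAS was found in 1 of 6 genes in AS, in 4 of 6 in RC4 and in 3 of 6 in RC8, compared with 15.3%, 29.1% and 27% of all genes with several PASs. With 6 genes these shares are too coarse to set apart from the background. Sequences of the last 30 bases up to a PAS (mm9, strand of the gene) are shown for the genes with 1 PAS and for Trp53 and Bax, which had the largest changes in PAS share in RC4 and RC8, respectively, with the polyadenylation signal AATAAA in capitals where it is present. They are chr10:117125948-117125977 (minus), chr6:66985094-66985123 (minus), chr4:11101497-11101526 (plus), chr11:69405235-69405264 (plus), chr11:69405346-69405375 (plus), chr7:52717199-52717228 (minus) and chr7:52716960-52716989 (minus).
Mdm2: aAATAAAtggtttattgaagaattgtgaaa
Gadd45a: cattatctaaAATAAActggtatggaataa
Trp53inp1: tgtcagtaAATAAAatgtcctttaacttaa
Trp53 proximal: tcctccagggcctactttccttccattctg
Trp53 distal: tattttacAATAAAattttgttatcactta
Bax proximal: ctcccactgccttggactgtgtcttttctt
Bax distal: ggacccgctccataaagagtacacaccgca

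All 3 genes with 1 PAS had AATAAA, 20 to 29 bases upstream of the PAS. Over the 24 PASs of the 9 genes, 7 had AATAAA or ATTAAA within 40 bases upstream, or 29.2%, compared with 51.9% of 21565 PASs. In Trp53 the distal PAS had AATAAA, while the proximal PAS and both PASs of Bax had neither AATAAA nor ATTAAA. Other forms of the signal were not searched for. The motif ATTTA, typical of AU-rich elements of short-lived mRNAs, was sought on the strand of the gene in the 500 bases upstream of the most used PAS. In that window it was present 3 times in Mdm2, 2 times in Gadd45a and 1 time in Btg2. The windows of the other 6 genes held none, compared with 51.9% of 10452 genes with at least 1. The longer motif TTATTTATT, which contains ATTTA, was found in the windows of Mdm2 and of 2.80% of all genes. The most used PAS lies 4420 bases after the stop codon in Trp53inp1, 2287 in Ccng1 and 1282 in Cdkn1a. Most of these stretches was therefore not searched. In Bax it lies 272 bases after the stop codon, in Gadd45b 385 and in Trp53 331 after the nearest one. Those windows reach before that stop codon. An ATTTA lies just upstream of the most proximal PAS of Cdkn1a, outside its window.

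The distal PAS of Trp53 had a larger share in recovery. The proximal PAS lies 331 bases after the nearest annotated stop codon and the distal PAS 111 bases further on. The distal PAS took 9.32% (7.59 to 11.4) of NT reads, 10.5% (8.47 to 12.9) of AS reads, 22.4% (18.2 to 27.3) in RC4 and 20% (16.9 to 23.5) in RC8. NT and AS overlapped and both recovery libraries were above them, with RC4 and RC8 overlapping each other. In RPM, reads at the proximal PAS were 3.38-fold lower in RC4 than in NT, at 10.8 and 36.4 RPM, while those at the distal PAS were 1.2-fold lower, at 3.11 and 3.74 RPM. REDu, the log2 change of the distal to proximal ratio between the PASs with the most change, came to 0.19 ± 0.24 (counting error) for AS, 1.49 ± 0.25 for RC4 and 1.28 ± 0.22 for RC8. The direction was opposite to that of the median gene with several PASs in the 3′-most exon, for which REDu came to −0.23 for AS, −0.37 for RC4 and −0.14 for RC8. For Gadd45b REDu was 0.53 ± 0.21 (AS), 1.25 ± 0.22 (RC4) and −1.54 ± 0.21 (RC8), so its direction in AS and RC4 was that of Trp53. For Ccng1 it was 0.55 ± 0.10 (AS), −0.74 ± 0.12 (RC4) and −1.14 ± 0.13 (RC8). In both genes the pair of PASs compared was not the same in every comparison.

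In Bax the proximal PAS had a larger share in all 3 treated libraries, although the level of the gene did not change 2-fold. Its proximal PAS, 33 bases after the stop codon, took 20.5% (16.7 to 24.9) of NT reads, 31.0% (26.4 to 36.0) of AS reads, 31.8% (27.5 to 36.5) in RC4 and 36.5% (31.1 to 42.3) in RC8. The treated libraries overlapped each other and lay above NT. REDu came to −0.80 ± 0.25 for AS, −0.85 ± 0.24 for RC4 and −1.16 ± 0.26 for RC8. The lower level of Bax in RC8 lay at the distal PAS, which was 1.75-fold below NT, at 7.73 and 13.6 RPM, while the proximal PAS had 4.44 and 3.50 RPM. The distal PAS of Bax is 105 bases beyond the gene end in GENCODE vM1. No other annotated gene overlaps the 500 bases upstream of any PAS of the 9 genes, and the bases downstream were not searched.

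**Figure D4:**
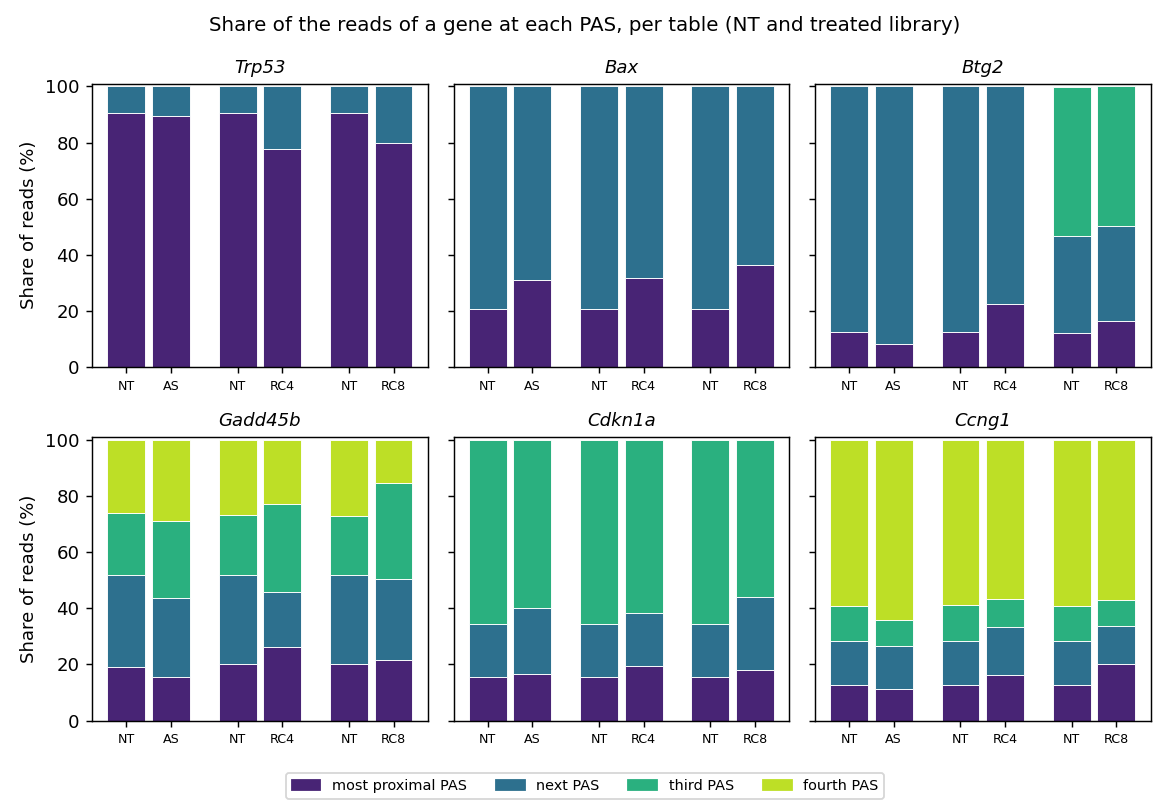
Share of reads in percent (y axis) at each PAS of the 6 genes with several PASs, as stacked bars from the most proximal PAS at the bottom, for NT and the treated library of each of 3 tables (x axis). The distal share of Trp53 is 9.32% in NT and 22.4% in RC4, and the proximal share of Bax is 20.5% in NT and 36.5% in RC8; 3 PASs of Btg2 are listed in RC8 and 2 otherwise.

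In Btg2 the proximal share was higher than NT in RC4. Its proximal PAS, 495 bases after the stop codon, took 12.3% of NT reads, 8.10% of AS reads, 22.4% in RC4 and 16.4% in RC8. In the RC8 table the distal PAS of the other tables, 2042 bases after the stop codon, is replaced by PASs at 1918 and 2067 bases. Intervals of NT and treated libraries were apart in RC4 and, narrowly, in AS, and overlapped in RC8. REDu came to 0.67 ± 0.24 for AS, −1.04 ± 0.25 for RC4 and −0.52 ± 0.32 for RC8, the last one with the PAS at 2067 bases as distal PAS. The higher level of Btg2 in AS lay mostly at the distal PAS, which was 2.57-fold above NT, compared with 1.61-fold at the proximal PAS. In RC4 the 2 PASs parted, with the proximal PAS 1.44-fold above and the distal PAS 1.43-fold below NT.

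Gadd45b had 4 PASs per table in a short stretch of its 3′ end. At the PAS 527 bases after the stop codon, the share was 22.3% and 27.5% in NT and AS, 21.6% and 31.4% in NT and RC4 and 20.9% and 34.4% in NT and RC8, with intervals that overlapped in AS and were apart in RC4 and RC8. The most distal PAS, 82 bases beyond the annotated gene end, had 26.0% and 28.7% in the AS table, 26.7% and 22.8% in the RC4 table and 27.1% and 15.3% in the RC8 table. In RC8, reads at these PASs were 3.89-fold and 1.33-fold above NT, so the higher gene level was spread unevenly over its 3′ ends. Neighbouring PASs lay 113 and 142 bases apart there.

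Cdkn1a used mainly its distal PAS, 1282 bases after the stop codon. That PAS took 65.6% (63.8 to 67.4) of NT reads, 59.9% (58.2 to 61.6) of AS reads, 61.7% (60.6 to 62.8) in RC4 and 55.9% (54.5 to 57.3) in RC8. Each treated library was below NT, by less than 10 percentage points, and REDu was −0.43 ± 0.10 (AS), −0.43 ± 0.09 (RC4) and −0.69 ± 0.09 (RC8). The distal PAS was paired with the PAS 128 bases upstream in AS and RC8 and with the one 1103 bases upstream in RC4. In RC4 all 3 PASs of Cdkn1a carried more reads than in NT, by 3.24-fold, 2.53-fold and 2.41-fold from proximal to distal. The most distal PAS of Ccng1 took 59.2% in NT and 64.0% in AS, and it took 58.8% and 56.8% in the RC4 table and 59.2% and 57.2% in the RC8 table. Its most proximal PAS took 12.8% in NT and 20.1% in RC8, the largest change among its PASs, although the position listed there differs between tables. The PAS pairs of Trp53 and Bax and several pairs of Gadd45b, Cdkn1a and Ccng1 are less than 300 bases apart, and reads of QuantSeq FWD lie upstream of the PAS, so the share at each is an estimate of the read assignment, whose error the intervals do not include.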

How the data were processed

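QuantSeq FWD libraries of NT, AS, RC4 and RC8 cells, 1 each, were analysed from 3 tables of genes and 3 of PASs. As stated in the study's methods, the authors trimmed reads with bbmap, mapped them to mm9 and applied MAAPER with PASs of PolyA_DB v3, keeping genes with at least 50 reads and PASs at a proportion of 5%. STAR 2.5.2a is named in the submitters' processing notes. Counts of reads on each gene were deposited as raw whole numbers, in 2 columns per library that differed by no more than sampling noise (chi-square per degree of freedom of 0.974 to 1.03) and were added. The fraction of the reads of a gene at each PAS was deposited per library. Deposited columns of the authors' own comparisons (P values, RED and RLD scores) were not used.

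RPM was computed over the reads of the table. With 1 library per condition there was no test, and a call was a change of at least 2-fold or of 10 percentage points in a PAS share. Intervals (95%) were exact Poisson for RPM, exact binomial for log2 changes and Wilson for shares. REDu was computed by the formula of the methods, with a standard error from counting after ±. Members and gene lists were chosen with earlier results of these data known. All 9 genes were named, with every gene of the fixed lists that changed at least 2-fold and the 3 genes nearest to Mdm2, Cdkn1a and Btg2, while Sertad1, Klf6, Mdm4, Bak1, Bbc3 and Hmox1 were named after their values had been seen. Alternatives were other scalings (edgeR 4.0.16 TMM factors, median-of-ratios size factors, the study's read numbers, genes in all 3 tables, the median gene), either count column alone, genes with at least 200 reads, a fold of 1.5, changes of 5 and 20 percentage points and PAS pairs of at least 5%. The scripts were tested on simulated data. Sequences came from NCBIM37 (mm9) with GENCODE vM1 and from RefSeq (GRCm38.p6). Python 3.11.15, scipy 1.17.1 and R 4.3.3 were used. QuantSeq REV libraries were not analysed here.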

Additional observations from a re-analysis of the deposited data

Results flagged for a closer look

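Among the 9 genes, 3 had changes of opposite direction relative to NT in different comparisons with counting intervals clear of 0, a difference that was not tested because each condition has 1 library. The share of all genes that meet this rule was not computed, so the count cannot be set against a background. Mdm2 was below NT in AS (log2 change −0.1366) and above it in RC4 (1.4585) and RC8 (0.3403). Its AS change was small, at −0.10 relative to the median gene, and 38.9% of genes had a lower one. Trp53inp1 had the same order of signs, with −0.5635 in AS, 1.3905 in RC4 and 0.4720 in RC8. Btg2 was above NT in AS (1.2932) and below it in RC4 (−0.3408) and RC8 (−0.9758). The RC4 value of Btg2 is close to the change of the median gene in RC4, which was −0.30.
Bax also had values on both sides of NT, but its intervals in AS and RC4 include 0.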

How the results depend on the processing

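Scaling by TMM factors, by median-of-ratios size factors, by the read numbers of the study or by genes in all 3 tables, use of either count column alone and a minimum of 200 reads left the number of genes with a 2-fold call in each direction within 1.5 times of the reported one, as did changes taken relative to the median gene, an alternative chosen after seeing the data. Over all genes, calls in RC4 were 21.6% higher and the rest lower, and relative to the median gene 643 were higher and 643 lower, whereby 6 list genes lost a call and 1 gained it; in AS 2 list genes gained it. With a fold of 1.5, RC8 gave 2 genes higher and 2 lower instead of 1 and 0. With 5 percentage points, the number of genes with a changed PAS share was 3 in AS and 5 in RC8, and with 20 percentage points it was 0 for AS, 0 for RC4 and 0 for RC8, so no PAS result reached that size. Of 188 single-gene log2 changes recomputed, 184 kept their sign. The exceptions were Bax in AS, 0.01 with median-of-ratios size factors and 0.06 with the first count column, Bax in RC4, −0.03 with the first count column, and Gadd45a in RC8, −0.07 with the first count column, all of genes whose intervals include 0. The scalings moved the RC4 median of all genes from −0.30 to −0.01 with TMM factors, and the RC4 change of Trp53 ranged from −1.60 to −1.23 and that of Mdm2 from 1.43 to 1.76. Bax and Trp53inp1, with 158 to 626 reads per library, have the widest intervals beside Gadd45a. No paired analysis was possible because each condition has 1 library.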
